A study of Mus musculus with 4 samples.

Results

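The expression of 8 fibroblast growth factor (FGF) genes was followed on all 4 arrays of the series. The ligand genes were Fgf2, Fgf5, Fgf7, Fgf10 and Fgf18, and the receptor genes were Fgfr1, Fgfr2 and Fgfr3. The members were every probe set that the platform annotation pairs with 1 of these genes alone, which gave 15 of the 45101 probe sets on the array. A probe set is a group of short probes on the array that together measure 1 stretch of a transcript. A probe set was tested only if its highest value over the 4 arrays lay above the median of all values (log2 8.90), and 9 of the 15 passed this level filter. They belonged to 6 genes, since the probe sets of Fgf2 and Fgf10 did not pass.

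FGFs are secreted proteins that bind receptor tyrosine kinases on the cell surface together with heparan sulfate chains, and the bound receptor signals mainly through the adaptor Frs2 to the Ras and MAP kinase cascade. Fgf7 (keratinocyte growth factor) and Fgf10 are made by mesenchymal cells and act on the epithelial splice form of Fgfr2. Fgf2 has a broad receptor range, Fgf5 limits hair growth, and Fgf18 acts on cartilage and bone, largely through Fgfr3. Fibroblasts typically carry Fgfr1 and the mesenchymal splice forms of the receptors. Probe sets such as these do not tell the splice forms apart unless their probes lie in an alternative exon, and the position of the probes was not analysed here.

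The cells were mouse embryonic fibroblasts at passage 5, taken from FAK +/+ mice (wild type) or FAK -/- mice (knockout). FAK stands for focal adhesion kinase, a signalling enzyme of the sites where cells attach to matrix. All cells were grown with 10% fetal bovine serum and held without serum for 24 h from 50% confluence. They were then kept for a further 24 h either untreated or with endothelin-1 (ET-1), a peptide that acts on G protein-coupled receptors and whose dose is not given in the sources used here. Each of the 4 groups (wild type untreated, wild type with ET-1, knockout untreated, knockout with ET-1) was measured on 1 array from 100 ng of total RNA. The number of embryos or cultures behind each genotype is not given in the sources used here, so a difference between genotypes cannot be told apart from a difference between cell preparations. With 1 array per group no spread between replicates could be computed, and no neighbouring values in any order of the groups could be compared with such a spread.

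The annotation pairs no probe set with Ptk2, the gene of FAK, so the genotype labels were not checked. Array medians lay between 8.89 and 8.92 on the log2 scale. On the wild-type ET-1 array the 3′ control probe set of Gapdh exceeded the 5′ one by 3.79 (log2), against 0.85 to 0.90 on the other 3 arrays. The gap was also largest there for beta-actin (1.81, against 0.66 to 1.30) and 18S RNA (1.71, against -0.65 to -0.22). It was largest there as well for the controls DapX (5.15, against 3.86 to 3.92), LysX, PheX and ThrX. The untreated genotype difference does not draw on that array, while every limma difference below does. For 9 probe sets of spiked-in hybridisation controls the values had a median of -0.39 (log2) on the knockout ET-1 array relative to untreated wild type, against 0.00 on the wild-type ET-1 array and -0.08 on the untreated knockout array.

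Markers of the labelled cell type were present. Of 13 fibroblast markers measured, 11 passed the level filter, and Lum and Fap did not. Between the untreated arrays 6 of these 11 were lower in the knockout by 2-fold or more and 1, Dcn, was higher by as much, and the list median was -1.55 (log2). All 10 mesothelial markers passed the filter and were higher by 2-fold or more in the knockout before ET-1, with a list median of 2.76. Over all genes past the filter, 4.78% were higher and 4.59% lower by 2-fold or more. The summed linear level of the 10 mesothelial markers was 21657 in untreated wild type and 8426 in wild type with ET-1. It was 128328 in the untreated knockout and 116228 in the knockout with ET-1. Of 12 epithelial markers 10 passed. By the same measure 4 of them were higher and 1 was lower, and the epithelial cadherin Cdh1 stayed between 5.74 and 5.95. Of 8 endothelial markers 2 passed, of 8 leukocyte markers 4, of 7 skeletal muscle markers 3 and of 6 neural and glial markers 3. The mesothelial and fibroblast lists thus moved with genotype beside every FGF difference below, and their part in those differences was not tested. In RNA from a whole culture, fewer cells of a type and less RNA per cell cannot be told apart.

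**Figure D1:**
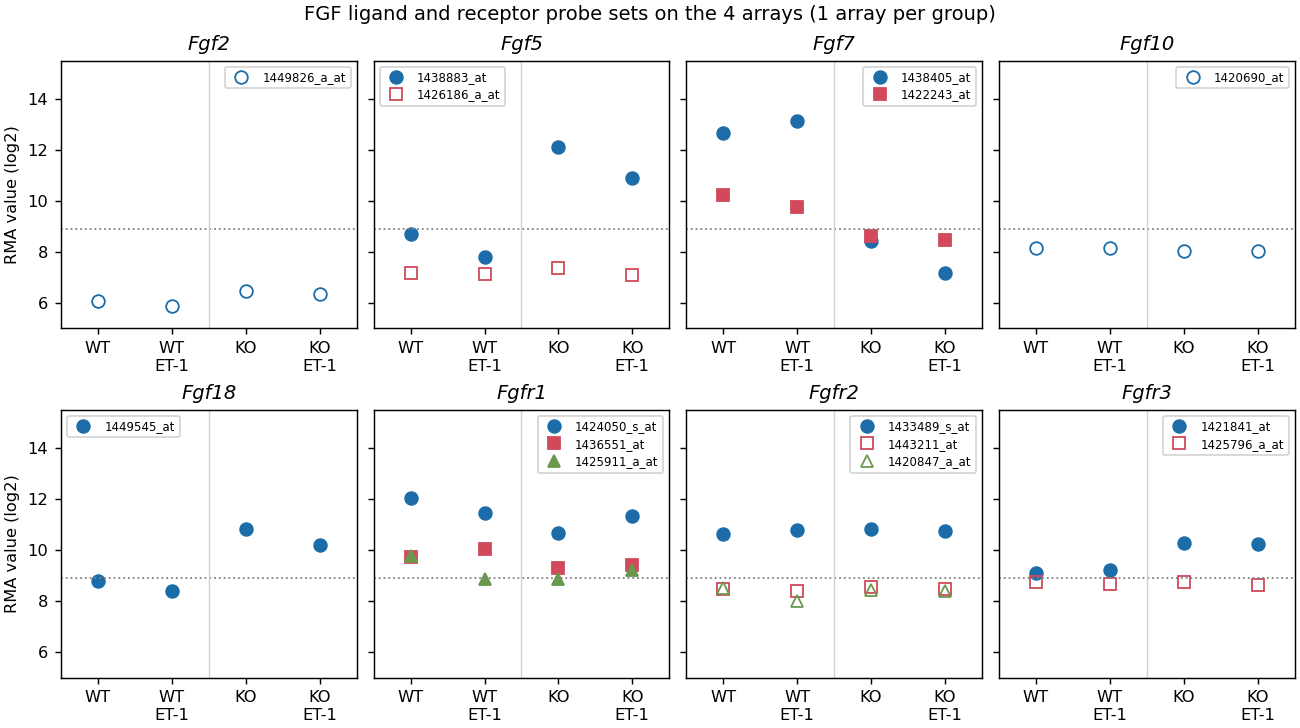
RMA values (log2, vertical axis) of the 15 member probe sets on the 4 arrays (WT, wild type; KO, knockout), with 1 panel per gene and 1 symbol per probe set. Open symbols mark probe sets that did not pass the level filter (dotted line, 8.90). Fgf7 was high in wild type, and Fgf18 and 1 probe set each of Fgf5 and Fgfr3 were high in the knockout. Fgf2 and Fgf10 lay below the line on every array.

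Fgf7 was high in wild type and low in the knockout. Its probe set 1438405_at read 12.67 in untreated wild type, 13.13 in wild type with ET-1, 8.43 in the untreated knockout and 7.16 in the knockout with ET-1. Both wild-type arrays were thus far above both knockout arrays, and both knockout values lay below the level filter. The knockout was 18.9-fold lower in untreated cells, a log2 difference of -4.24 that was the 15th lowest of 24625 probe sets. After ET-1 the difference was -5.97. A separate Fgf7 probe set, 1422243_at, read 10.24, 9.79, 8.62 and 8.47 in the same order of groups. It gave the same order of genotypes with smaller differences of -1.63 untreated and -1.32 after ET-1, or 3.09-fold and 2.50-fold. Since the knockout values are dim for both probe sets, the size of the fold is uncertain.

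The design allowed a single test across all probe sets. With limma, genotype and treatment were fitted as additive terms to the 4 arrays and 24625 probe sets. The standard error (SE) and p-value of this fit set the genotype difference averaged over treatments against the 1 remaining term, the genotype by treatment interaction. It does not measure a spread between cultures. By this test Fgf7 fell in the knockout by both probe sets. Both had passed the level filter only through the wild-type arrays, where they are high, so the fit took them up because of the group in which they are high. The limma difference was -5.10 ± 0.48 (SE, adjusted p = 0.0377) for 1438405_at and -1.47 ± 0.13 (SE, adjusted p = 0.0354) for 1422243_at. At this threshold 5.23% of all probe sets were called, 2.54% as higher and 2.69% as lower in the knockout.

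Fgf10, the ligand nearest to Fgf7 in receptor use, showed no such pattern. Its only probe set read 8.16 and 8.16 in wild type without and with ET-1 and 8.03 and 8.04 in the knockout. All values lay below the level filter, and the 4 arrays spanned 0.14 (log2). Whether Fgf10 differs between genotypes was not detectable at this signal.

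Fgf5 had the opposite direction. Its probe set 1438883_at read 8.71 in untreated wild type, 7.79 in wild type with ET-1, 12.14 in the untreated knockout and 10.89 in the knockout with ET-1. Both wild-type values lay below the level filter and both knockout values far above it. The knockout was 10.8-fold higher in untreated cells (log2 3.43, the 27th highest of 24625 probe sets) and 8.56-fold higher after ET-1. By limma Fgf5 rose by 3.26 ± 0.13 (SE, adjusted p = 0.0329). The fit took this probe set up only because of the knockout arrays, where it is high, so the p-value is no separate support. Since the wild-type values are dim, the size of the fold is uncertain. The other Fgf5 probe set, 1426186_a_at, did not pass the filter and read between 7.08 and 7.37 on all 4 arrays, so it showed no difference of this kind.

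Fgf18 was higher in the knockout as well. It read 8.79 in untreated wild type, 8.41 in wild type with ET-1, 10.84 in the untreated knockout and 10.19 in the knockout with ET-1. The wild-type arrays again lay below the filter and the knockout arrays above it. The knockout was 4.15-fold higher in untreated cells and 3.44-fold higher after ET-1, and by limma Fgf18 rose by 1.92 ± 0.12 (SE, adjusted p = 0.0329). As for Fgf5, the probe set entered the fit only through the knockout arrays, so the p-value is no separate support. The size of the fold is uncertain here too. The gene has a single probe set on the array, so no further measurement of it was at hand.

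Fgf2, the ligand added to many fibroblast cultures as a mitogen, was dim throughout. Its probe set read 6.07 and 5.89 in wild type without and with ET-1 and 6.47 and 6.37 in the knockout. The knockout values were higher by 0.41 untreated and 0.48 after ET-1 on the log2 scale, well below 2-fold, and no test was made because the probe set did not pass the filter.

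The sequence just before the start is shown for Fgf7, Fgf5 and Fgf18, the 3 member ligands that limma called, so that their promoters can be compared in base composition. Each line gives the 250 bases before the annotated start from RefSeq (GRCm38.p6), written 5′ to 3′ on the strand of the gene, and capitals mark CpG dinucleotides. The windows are chr2:126034408-126034657 on the plus strand for Fgf7, chr5:98253934-98254183 on the plus strand for Fgf5 and chr11:33147401-33147650 on the minus strand for Fgf18.
Fgf7: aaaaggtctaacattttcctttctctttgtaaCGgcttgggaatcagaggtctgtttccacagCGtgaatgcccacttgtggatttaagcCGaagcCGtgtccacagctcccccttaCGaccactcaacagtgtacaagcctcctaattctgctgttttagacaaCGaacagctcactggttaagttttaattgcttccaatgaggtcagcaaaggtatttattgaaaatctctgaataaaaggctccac
Fgf5: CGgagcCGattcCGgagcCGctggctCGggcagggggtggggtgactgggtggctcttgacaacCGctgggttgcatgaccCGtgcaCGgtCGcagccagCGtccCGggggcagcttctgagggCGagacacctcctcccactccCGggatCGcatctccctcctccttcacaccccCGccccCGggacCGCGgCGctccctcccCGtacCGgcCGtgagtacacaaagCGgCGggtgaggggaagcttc
Fgf18: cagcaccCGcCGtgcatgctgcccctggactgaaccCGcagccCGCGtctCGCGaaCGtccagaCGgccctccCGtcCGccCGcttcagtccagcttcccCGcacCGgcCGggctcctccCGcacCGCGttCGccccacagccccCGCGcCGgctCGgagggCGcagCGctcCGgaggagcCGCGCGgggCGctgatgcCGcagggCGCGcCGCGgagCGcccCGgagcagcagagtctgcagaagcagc
Fgf7 has 6 CpG dinucleotides in this window and a GC content of 43.6%. Fgf5 has 24 at 70.8% GC and Fgf18 has 37 at 77.2% GC. Over all 32851 windows of this length in the table the median was 6 CpG dinucleotides, and 12.0% of windows held as many as Fgf5 or more and 2.2% as many as Fgf18 or more. Fgf9, a further ligand gene that was higher in the knockout, has 11 at 44.8% GC. The 2 windows of Fgfr3, a member higher in the knockout by its brighter probe set, have 19 at 66.8% GC and 24 at 72.8% GC. Whether composition bears on the direction of the genotype difference was not tested. The promoters of 7 of the 8 members were in the table, with 2 windows for Fgfr3. Of 6 motifs searched on both strands, GGGCGG (32.7% of all windows) was found once each in the Fgf2, Fgf5, Fgf10 and Fgf18 windows, and 3 times and 2 times in the Fgfr3 windows. The motifs TATAAA (12.4% of all windows), GGAATG (12.6%), TGANTCA (6.75%), CATATG (3.46%) and the CArG box (1.47%) were in none of the member windows, and no motif searched was in the Fgf7 or Fgfr2 window. These are matches of letters and say nothing of binding.

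Among the receptors, Fgfr3 was higher in the knockout. Its probe set 1421841_at read 9.11 in untreated wild type, 9.21 in wild type with ET-1, 10.28 in the untreated knockout and 10.26 in the knockout with ET-1. All 4 values passed the level filter, and the genotypes were further apart than the treatments within each genotype. The knockout was 2.24-fold higher untreated and 2.06-fold higher after ET-1, and by limma this probe set rose by 1.10 ± 0.10 (SE, adjusted p = 0.0356). The other Fgfr3 probe set, 1425796_a_at, read 8.65 to 8.76 on all arrays, below the filter, and differed between genotypes by 0.01 untreated and -0.04 after ET-1. The Fgfr3 difference thus rests on 1 of 2 probe sets.

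Fgfr1, a receptor typical of fibroblasts, was lower in the untreated knockout by all 3 of its probe sets. The brightest, 1424050_s_at, read 12.04 in untreated wild type, 11.46 in wild type with ET-1, 10.69 in the untreated knockout and 11.36 in the knockout with ET-1. Untreated wild type was the highest array and the untreated knockout the lowest, with the ET-1 arrays of both genotypes close together between them. The untreated difference was -1.34 (2.54-fold lower in the knockout) and the difference after ET-1 was -0.10. Probe set 1425911_a_at read 9.78, 8.89, 8.87 and 9.22 in the same order of groups, with genotype differences of -0.91 untreated and 0.33 after ET-1. Probe set 1436551_at read 9.74, 10.03, 9.30 and 9.41, with genotype differences of -0.44 and -0.62. By limma none of the 3 passed, with differences of -0.72 ± 0.37 (SE, adjusted p = 0.346), -0.29 ± 0.35 (SE, adjusted p = 0.693) and -0.53 ± 0.11 (SE, adjusted p = 0.0941). A p that misses the threshold does not show that the genotypes are alike, and the fit takes each probe set's own interaction into its error, which was large for the first and second of them.

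Fgfr2, the receptor that carries the epithelial splice form bound by Fgf7, stayed level. Its brightest probe set, 1433489_s_at, read 10.62 in untreated wild type, 10.80 in wild type with ET-1, 10.81 in the untreated knockout and 10.76 in the knockout with ET-1, a span of 0.19. The limma difference between genotypes was 0.08 ± 0.14 (SE, adjusted p = 0.810). Both other probe sets lay below the filter. Probe set 1443211_at spanned 8.40 to 8.56. Probe set 1420847_a_at read 8.41 to 8.53 on 3 arrays and was lowest in wild type with ET-1, 0.53 below the highest array.

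**Figure D2:**
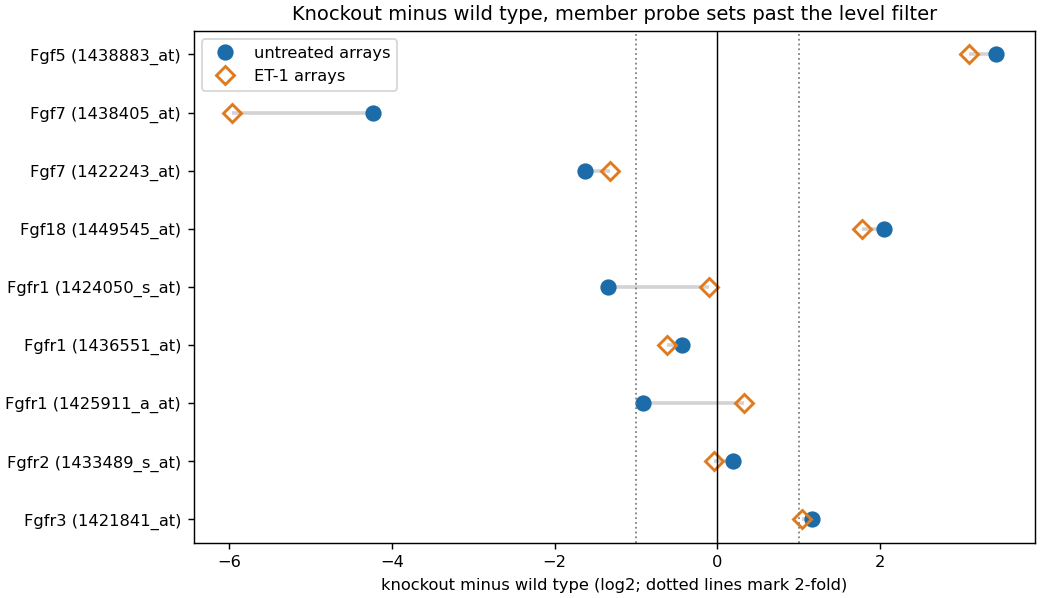
Knockout minus wild-type difference (log2, horizontal axis) of the 9 member probe sets past the level filter, in the untreated arrays (filled circles) and the ET-1 arrays (open diamonds), with dotted lines at 2-fold. Fgf5, Fgf7, Fgf18 and Fgfr3 keep their side and their 2-fold difference in both treatment states, while the Fgfr1 probe sets 1424050_s_at and 1425911_a_at move from the negative side toward or past 0.

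Counted over the probe sets past the filter, 3 of 9 were higher and 3 were lower by 2-fold or more in the knockout before ET-1, where 4.39% and 4.61% of all 24625 probe sets were. After ET-1 the counts were 3 and 2 of 9, against 6.44% and 5.90% of all probe sets. By limma 3 rose, 2 fell and 4 were not called. The Fgf5, Fgf7 and Fgf18 probe sets passed the filter only through the arrays of the genotype in which they were high, so these counts describe the members and support nothing further. Without the level filter limma called 0 of 45037 probe sets for genotype, 8332 of them at an unadjusted p under 0.05, and the adjusted p of the 5 called members lay between 0.0533 and 0.0692. Over the other settings tried, these members stayed under 0.05 wherever they were tested.

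After ET-1, 0 of the 9 member probe sets differed by 2-fold or more in wild type, where 2.77% of all probe sets did, and 2 of 9 were at least 2-fold lower in the knockout, where 0.244% were. Those were 1 probe set each of Fgf5 and Fgf7. Fgf5 was lower after ET-1 in both genotypes, by 1.89-fold in wild type (log2 -0.92) and by 2.38-fold in the knockout (log2 -1.25). In wild type both Fgf5 values lay below the level filter. Fgf18 had the same direction at smaller size, with -0.38 in wild type and -0.65 in the knockout. The 2.42-fold lower Fgf7 value in the knockout by 1438405_at (log2 -1.27) was a difference between values below the filter, and the other Fgf7 probe set differed by -0.15 there. In wild type the Fgf7 probe sets went opposite ways, 0.46 for 1438405_at and -0.45 for 1422243_at.

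For Fgfr1 the ET-1 differences of both genotypes went opposite ways by 2 of 3 probe sets. By 1424050_s_at it was 1.49-fold lower after ET-1 in wild type and 1.58-fold higher in the knockout, and by 1425911_a_at 1.85-fold lower and 1.28-fold higher. The difference between both ET-1 differences was 1.24 (log2) for each of these probe sets, while 1436551_at gave -0.18. At 2-fold or more, 5.13% of all probe sets had such a difference, and 3 of the 9 member probe sets did. Fgfr2 (0.18 and -0.06) and Fgfr3 (0.10 and -0.02) differed little after ET-1 in wild type and knockout. By limma, 0 of 24625 probe sets (0.0%) were called for ET-1 averaged over genotypes, with 4.10% at an unadjusted p under 0.05. Of the members, Fgf5 (-1.08 ± 0.13, SE, unadjusted p = 0.00236) and Fgf18 (-0.52 ± 0.12, SE, unadjusted p = 0.0175) were at an unadjusted p under 0.05 by limma, and each had an adjusted p of 0.838. Mesothelial markers were also lower on the wild-type ET-1 array, where 6 of 10 were lower by 2-fold or more than in untreated wild type, against 1.17% of all genes. In the knockout 0 of 10 were lower by as much after ET-1, against 0.277% of all genes. Of the 11 fibroblast markers past the filter, 3 were lower by 2-fold or more after ET-1 in the knockout, beside Fgf5 and Fgf7, and 0 were in wild type. On the log2 scale they were Postn (-3.28), Thy1 (-2.10) and S100a4 (-1.42). The part of these marker differences and of the 3′ to 5′ gap of that array in the wild-type values was not tested.

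**Figure D3:**
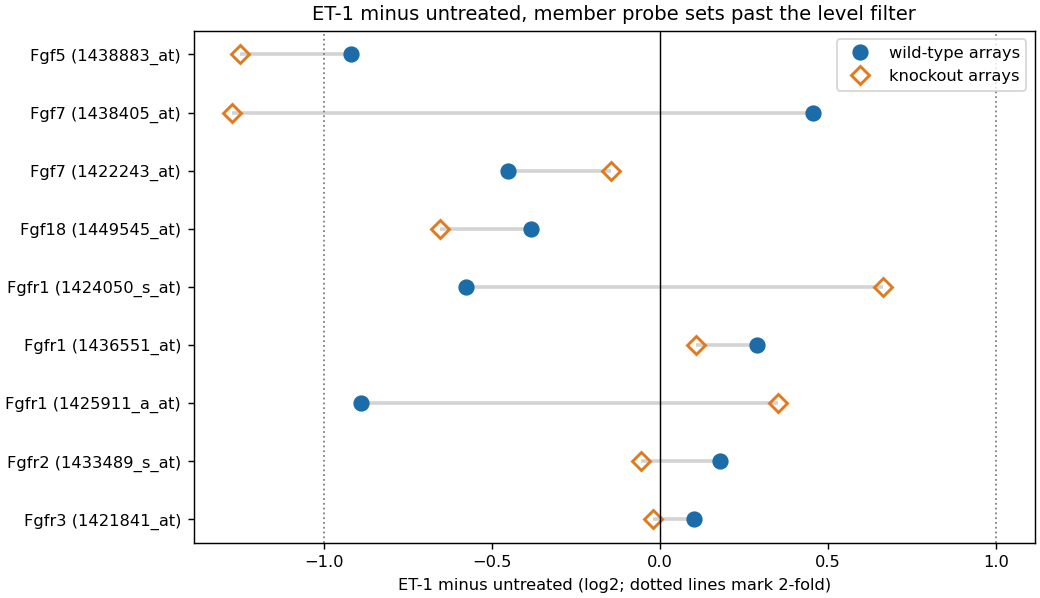
ET-1 minus untreated difference (log2, horizontal axis) of the 9 member probe sets past the level filter in wild type (filled circles) and knockout (open diamonds), with dotted lines at 2-fold. Fgf5 and Fgf18 lie left of 0 in both genotypes, and the Fgfr1 probe sets 1424050_s_at and 1425911_a_at lie left of 0 in wild type and right of 0 in the knockout.

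The remaining genes of the pathway were taken from lists of 116 genes, of which 107 were measured and 85 passed the filter by their brightest probe set. Between the untreated arrays 13 of the 85 were higher and 6 were lower by 2-fold or more in the knockout, against 4.78% and 4.59% of all 12289 genes. Their median difference was 0.04, beside 0.02 over all genes. By limma 5 rose and 3 fell, where 2.89% and 3.09% of all genes did. The 8 members and the lists had been chosen with earlier results of these data known. The counts thus describe the listed genes and support nothing further, and no contrast between the members and these genes is drawn.

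Of 13 further secreted ligands measured, 3 passed the filter, and 1 of them, Fgf9, stood beside Fgf5 and Fgf18. Fgf9, a ligand of mesothelial and epithelial cells in the developing lung, read 8.03 and 7.60 in wild type without and with ET-1 and 11.41 and 10.68 in the knockout. It rose by 3.23 ± 0.12 (SE, adjusted p = 0.0329) by limma, and its other probe set was higher by 0.85 untreated and 0.52 after ET-1. The Fgf9 probe set that was called passed the filter only through the knockout arrays, as those of Fgf5 and Fgf18 did. Fgf4 and Fgf22 differed by 0.17 or less in either treatment state. All 4 intracellular FGF homologues (Fgf11 to Fgf14) lay below the filter.

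Among receptors and co-receptors, Fgfbp1, a carrier that releases FGFs from matrix, was 5.38-fold higher in the untreated knockout and 2.84-fold higher after ET-1, but did not pass limma (1.97 ± 0.28, SE, adjusted p = 0.0587). It read 8.12 and 7.63 in wild type without and with ET-1, below the filter, so these folds are uncertain. After ET-1 it was 2.64-fold lower in the knockout, the direction of Fgf5 and Fgf18. Flrt3, a membrane protein that binds FGF receptors, differed by -1.09 untreated and -2.51 after ET-1. Flrt2 went the other way, with 1.14 and 0.46, and Flrt1 differed by 0.26 and 0.27. The decoy receptor Fgfrl1 differed by -0.14 and -0.52, and Fgfr4 by -0.05 and 0.06. By limma 0 of the 6 genes past the filter in this list were called, with 3 at an unadjusted p under 0.05, where 26.4% of all genes were.

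The heparan sulfate partners of the ligands moved in different directions. Of 10 proteoglycan genes past the filter, Gpc1 (-1.40 ± 0.16, SE, adjusted p = 0.0446) and Gpc4 (-1.90 ± 0.21, SE, adjusted p = 0.0449) fell and Gpc3 rose (1.45 ± 0.14, SE, adjusted p = 0.0392) by limma, and 7 were not called. Over all genes 3.09% fell and 2.89% rose by limma. The untreated differences, which leave out the wild-type ET-1 array, were -1.59 for Gpc1, -1.63 for Gpc4 and 1.25 for Gpc3. A further Gpc4 probe set past the filter, 1436514_at, differed by -1.20 untreated and was not called by limma (-1.89 ± 0.40, SE, adjusted p = 0.102). The list median was 0.02 untreated. Of 17 genes for heparan sulfate synthesis and editing, 2 rose by limma and 0 fell, where 2.89% and 3.09% of all genes did. Between the untreated arrays 3 of the 17 (Sulf1, Hs6st1 and Sulf2) were higher and 0 lower by 2-fold or more, against 4.78% and 4.59% of all genes. After ET-1, 2 of the 17 were higher and 3 (Hs6st2, Ext1 and Glce) were lower by 2-fold or more in the knockout, against 5.61% and 6.53% of all genes. On the log2 scale Hs6st2 differed by -1.60, Ext1 by -1.06 and Glce by -1.01 there, against -0.30, -0.20 and -0.78 untreated. The differences after ET-1 draw on the wild-type array with the 3′ to 5′ gap. On that array Hs6st2 was 0.79, Ext1 0.64 and Glce 0.32 higher than in untreated wild type. Hs6st2 and Ext1 were named after their values were seen. Sulf1, a sulfatase that removes sulfate groups needed by FGF and its receptor, rose by 2.84 ± 0.16 (SE, adjusted p = 0.0329), with 6.98-fold untreated and 7.32-fold after ET-1. Hs6st1, which adds such groups, rose by 1.36 ± 0.12 (SE, adjusted p = 0.0350), with 1.46 untreated.

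Of 27 receptor adaptors and effectors listed, 20 were measured and passed the filter. Among these were Gab1, Akt1, Sos2 and Crkl, but not Frs2. None of the 20 reached 2-fold between genotypes, where 9.37% of all genes did untreated and 12.1% after ET-1. None passed limma, where 5.98% of all genes did, and 4 were at an unadjusted p under 0.05, where 26.4% of all genes were. The list median was -0.20 untreated. Of 10 feedback inhibitors 2 were higher by 2-fold or more in the knockout before ET-1, where 4.78% of all genes were. After ET-1 5 were higher and 0 were lower by as much, against 5.61% and 6.53% of all genes. The genotype differences after ET-1 draw on the wild-type array with the 3′ to 5′ gap, whose part in them was not tested. Spry3 rose by 2.45 ± 0.18 (SE, adjusted p = 0.0331) by limma, with 2.23 untreated. It passed the filter only through the knockout arrays, with 7.55 and 7.37 in wild type, and Spry4 only through the knockout ET-1 array. In the knockout Spry4 was 2.76-fold higher after ET-1, and the ETS factor Etv5, a transcription target of FGF signalling, was 2.39-fold higher, while Fgf5 and Fgf18 were lower there. In wild type Spry4 was 1.32-fold higher and Etv5 1.57-fold lower after ET-1. In the knockout 1 of the 10 feedback inhibitors and 3 of the 9 responsive transcription genes were higher by 2-fold or more after ET-1. None was lower by as much, and 0.236% of all genes were higher and 0.277% lower. On the log2 scale Egr1 differed by 1.61, Fos by 1.13, Etv4 by 0.18, Myc by -0.72 and Fosl1 by -0.77 there. In wild type the ET-1 differences of these genes were 1.05, 0.63, -0.35, 0.12 and -0.29 in the same order. Of the 9 responsive transcription genes, 1 (Egr1) was higher by 2-fold or more after ET-1 in wild type and 0 were lower. Over all genes 0.781% were higher and 1.17% lower by as much. Egr1, Fos and Etv4 were named after their values were seen. Of the 9 responsive transcription genes, Fosl1 fell by 2.66 ± 0.18 (SE, adjusted p = 0.0330) by limma, with -2.43 untreated, and Etv5 differed by 0.84 untreated and 2.75 after ET-1. Myc differed between genotypes by -1.18 and -2.03 and Bhlhe40 by 1.03 and 1.13. In the knockout 1 of the 9 was higher and 2 were lower by 2-fold or more untreated, against 4.78% and 4.59% of all genes. With ET-1 the counts were 4 and 2, against 5.61% and 6.53%.

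Esrp1 and Esrp2 are epithelial splicing factors that favour the epithelial form of Fgfr2. Esrp1 was higher in the knockout by 1.23 untreated and 1.36 after ET-1, and Esrp2 by 1.05 and 0.76, on the log2 scale. Neither passed limma (adjusted p = 0.0548 and 0.0552). Of the 10 splicing regulators 0 were called by limma, where 5.98% of all genes were. At an unadjusted p under 0.05 there were 3 of the 10, where 26.4% of all genes were. Esrp1 read 7.75 and 7.79 in wild type, below the filter, and 8.98 and 9.15 in the knockout. The Fgfr2 probe sets do not show which form was made.

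**Figure D4:**
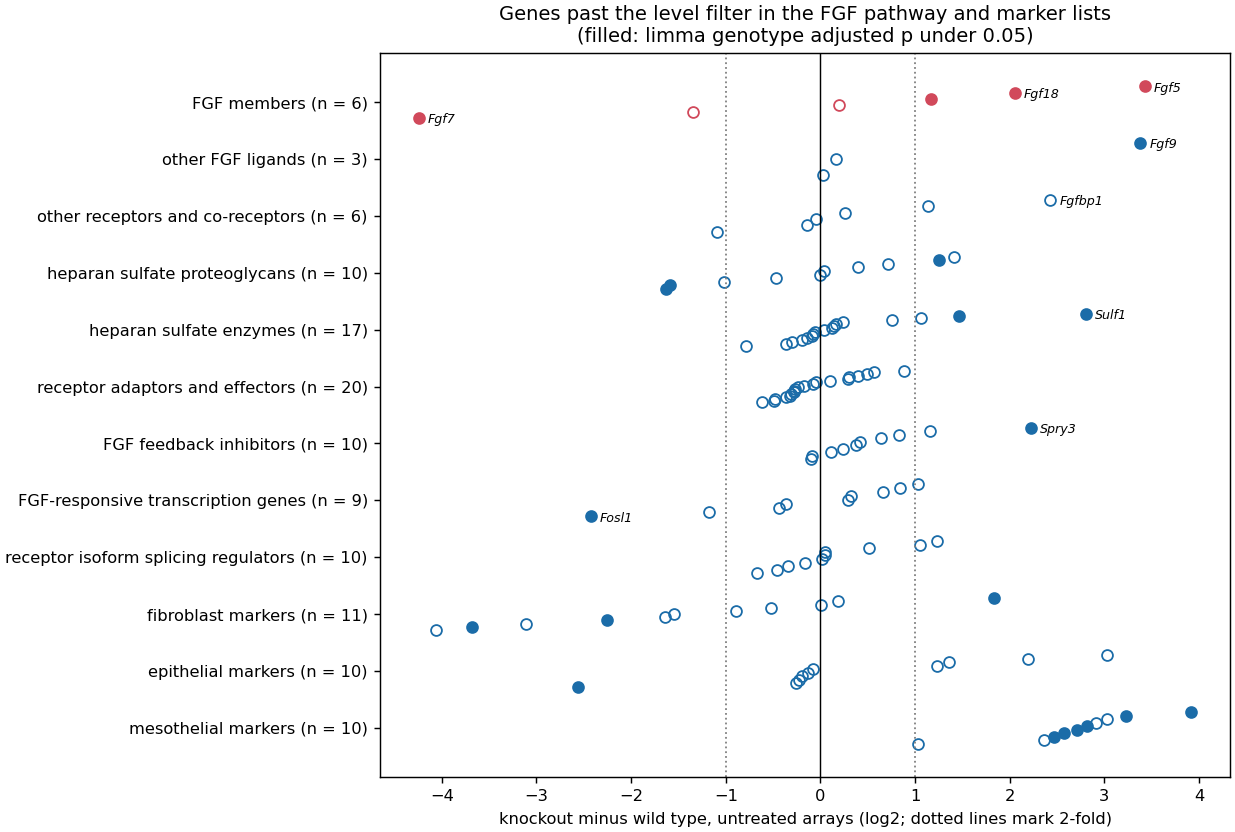
Knockout minus wild-type difference in the untreated arrays (log2, horizontal axis) of the genes past the level filter in each list, 1 point per gene by its brightest probe set, filled where limma called the genotype difference at an adjusted p under 0.05. Members are drawn in red. The adaptors lie within 2-fold of 0, Fgf5, Fgf9 and Fgf18 lie far to the right and Fgf7 to the left, and all 10 mesothelial markers lie to the right of the 2-fold line.

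The genes whose values followed a member most closely over the 4 arrays were found by the Euclidean distance between profiles after each gene's own mean was subtracted, for the 5 members that spanned at least 1 log2 unit. For Fgf7 these were B3galnt1 (distance 0.21), Aspn (0.37) and Cxcl5 (0.38), each lower in the untreated knockout by more than 4 log2 units. For Fgf5 they were Myo5b (0.25), Dmkn (0.28) and Igfbp3 (0.47). For Fgf18 they were Myl7 (0.19), Mmrn1 (0.24) and Dync1i1 (0.26). For Fgfr1 they were Sipa1l2 (0.16), Slc9a5 (0.25) and Nfat5 (0.26), and for Fgfr3 they were Stoml2 (0.08), Grhpr (0.08) and Map3k6 (0.09). With 4 arrays, many genes come close to any profile, and the distance describes these arrays only.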

How the data were processed

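The values are those the authors deposited, on the log2 scale, with 1 value per probe set for each of 4 Affymetrix mouse arrays. The submitters' processing notes name RMA, which corrects background, equalises the arrays and summarises probes, and its version is not given in the sources used here. Values were used as deposited, run from 5.00 to 15.24, and came with 0 columns of other samples. The platform annotation paired 34958 probe sets with 1 gene, 932 with several and left 9211 unlisted. The 15 member probe sets all matched RefSeq (GRCm38.p6) by Entrez identifier. In the lists each gene stands for its brightest probe set on average. The 64 control probe sets were left out.

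Differences between single arrays were counted at 2-fold and carry no replicate check. Genotype and treatment were fitted with limma 3.58.1 (R 4.3.3; lmFit, eBayes with trend), adjusted by Benjamini-Hochberg over 24625 probe sets at 0.05, with 1 residual degree of freedom and a prior of 2.37. Whether arrays came from separate cultures is not given in the sources used here, and their number limits precision. The fit was tested on simulated data. Tables and plots used Python 3.11.15, numpy 2.4.6, pandas 2.3.3 and matplotlib 3.10.9.

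The text names all 8 members, genes among the 4 largest untreated genotype differences of a list, genes set beside a member by role, and the 3 nearest profiles per member, with RIKEN, Gm and clone names passed over. The members and lists were chosen with earlier results of these data known. Alternatives covered normalisation, level filter, fold threshold, eBayes settings and probe set summary.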

Additional observations from a re-analysis of the deposited data

Results flagged for a closer look

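The ET-1 differences of 5 member probe sets past the level filter had opposite signs in wild type and knockout. With 1 array per group this difference was not tested. The knockout ET-1 difference minus the wild-type one was -1.73 (log2) for Fgf7 by 1438405_at, from 0.46 in wild type and -1.27 in the knockout. It was 1.24 for Fgfr1 by 1424050_s_at and 1.24 by 1425911_a_at. For Fgfr2 by 1433489_s_at it was -0.23 and for Fgfr3 by 1421841_at it was -0.12, each from differences under 0.18 in size in either genotype.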

How the results depend on the processing

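Of 39 recomputed counts of member probe sets, 34 stayed within 1.5 times the reported count. With the level filter at the 75th percentile (log2 10.46), 3 of the 5 members left were at 2-fold or more between genotypes after ET-1 and 3 were called by limma for genotype. With a 1.5-fold threshold, 2 member probe sets differed after ET-1 in wild type and 4 in the knockout. Without the level filter, limma called 0 of 15 member probe sets for genotype, 7 of them at an unadjusted p under 0.05, and 0 of 45037 overall. Over all probe sets the genotype calls numbered 1288 as reported, 2581 with array medians subtracted, 2000 under quantile normalisation and 2210 of 13106 at the 75th-percentile filter. With 1 probe set per gene in the fit they numbered 1674 of 12289. The share of calls that were higher in the knockout stayed between 46.9% and 51.4% in the settings with calls. For ET-1 limma called 0 probe sets in every setting, with 641 to 1977 at an unadjusted p under 0.05. All 56 limma values of single members kept their sign, and 51 kept their side of the threshold. The 5 that lost the call did so without the filter. Averaging every probe set of a gene, with the dim ones, moved Fgf5 to 1.81 untreated and 1.53 after ET-1, Fgf7 to -2.93 and -3.64, Fgfr1 to -0.90 untreated, and Fgfr3 to 0.59 and 0.50. It also put Fgf5 at -0.77 and Fgf7 at -0.71 for ET-1 in the knockout. Subtracting array medians shifted no member difference by more than 0.04 and quantile normalisation none by more than 0.11. Under quantile normalisation Fgfr3 differed by 0.998 after ET-1, just under 2-fold. Leaving out an array leaves the additive fit with no residual degree of freedom, so no such fit was made, and the untreated genotype difference is the value without the wild-type ET-1 array. No paired analysis was possible because each group has 1 array and the labels carry no replicate numbers. Apart from the level filter, which sets how many probe sets are tested, the cause of these shifts was not tested.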
